A study of Mus musculus with 12 samples.

Results

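The imprinted Dlk1-Meg3 cluster of mouse chromosome 12 is represented here by 5 genes, Dlk1, Meg3, Rian, Mirg and Rtl1, which were taken by symbol from the 22556 genes of the deposited count files. In an imprinted cluster, a gene is transcribed mainly from the copy inherited from 1 parent, under the control of a region whose DNA methylation differs between the parental copies. In this cluster, 1 parental copy produces the noncoding RNAs Meg3, Rian and Mirg, and the other produces the protein-coding mRNAs Dlk1 and Rtl1. Rian hosts many small nucleolar RNAs, Mirg hosts a large miRNA group, Dlk1 encodes a transmembrane ligand related to the Notch ligands, and Rtl1 encodes a retrotransposon-derived protein needed in the placenta. Loss of the noncoding RNAs is a known variation between mouse embryonic stem cell lines, so their level in each line and the parental copy that produced them are of interest in any hybrid stem cell line.

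The study measured chromatin-associated RNA, the fraction bound to chromatin and rich in unspliced transcripts, in female iXist-ChrX embryonic stem cells. There are 12 libraries, all from a hybrid of the 129S and Cast (Castaneus) strains. In all lines the Xist promoter on the 129S allele had been replaced by a TetOn promoter, so that doxycycline (Dox) induces Xist, the RNA that silences the X chromosome, and each line was sampled without Dox (0 h) and after 24 h of Dox. The lines were WT (intact Xist RNA, 1 library per state), XistDelA (Xist without its A-repeat, 3 clones named C1, 2C2 and C11, 1 library per clone and state) and XistDelm6A/T1_11C, called 11C below (Xist without its 5′ m6A region, 1 clone with 2 replicates per state). Libraries held 18893447 to 36007145 counts on genes (median 26552191), of which 44.6 to 47.1% could be assigned to a parental genome.

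Several limits apply throughout. WT had 1 library per state and so no replicate spread of its own, and 11C was 1 clone whose replicates are dishes of that clone. The file names give clone C11 a deletion designation that differs from that of C1 and 2C2. The WT and XistDelA files were numbered in 1 series and the 11C files were not, so a difference between 11C and the other lines cannot be told apart from a difference between sets of libraries. The labels do not say which strain was the mother, so the copies are named Cast and 129S and not maternal and paternal. The cells were grown on inactivated mouse fibroblasts, and by the methods they were pre-plated and free of feeders when chromatin RNA was taken. Fibroblast markers are reported with the comparison between lines.

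The 5 genes lie in the order Dlk1, Meg3, Rtl1, Rian, Mirg along chromosome 12 of the mm10 build. The counted span of Dlk1 (ENSMUSG00000040856.17, protein coding) was chr12:109452822-109463336 on the plus strand, and that of Meg3 (ENSMUSG00000021268.17, a long noncoding RNA) was chr12:109540995-109571729 on the same strand. Rtl1 (ENSMUSG00000085925.3, protein coding) was counted over chr12:109590168-109595403 and was the single minus-strand gene of the 5. Rian (ENSMUSG00000097451.10) spanned chr12:109603944-109661711 and Mirg (ENSMUSG00000097391.8) chr12:109734980-109749457, both on the plus strand and both noncoding. The 73268 bases between the counted spans of Rian and Mirg belong to no member, so the transcription that crosses them was not counted for any of the 5.

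**Figure D1:**
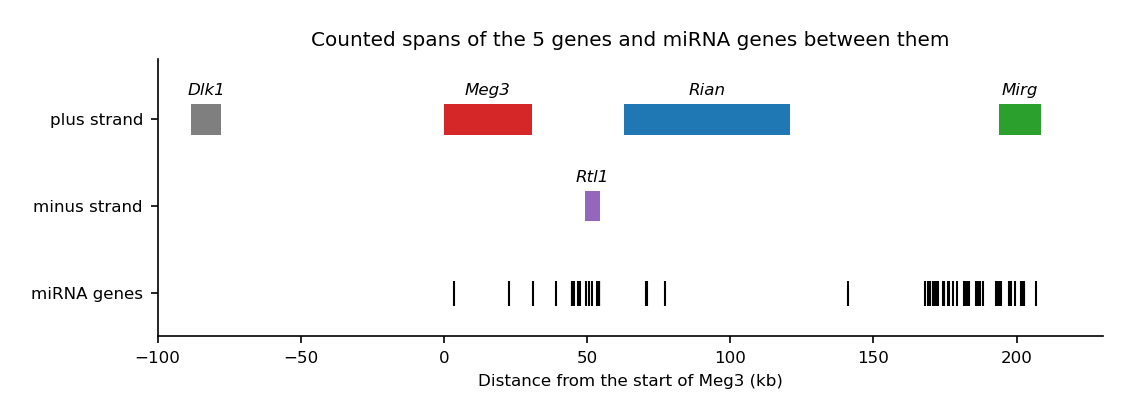
Counted spans of the 5 genes on each strand (coloured bars) and the miRNA genes of the domain (ticks), by distance in kb from the start of Meg3. Meg3, Rian and Mirg share the plus strand with Dlk1, Rtl1 lies on the minus strand, and the densest group of miRNA genes lies between Rian and Mirg.

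Most miRNA genes of the domain lie on the strand of Meg3, Rian and Mirg. RefSeq (GRCm38.p6) places 60 miRNA genes here, 57 on the plus strand and 3 on the minus strand. Of these, 10 lie inside the counted span of Mirg, 3 inside Rian, 2 inside Meg3, 1 inside Rtl1 on its own strand, 6 opposite Rtl1 and 30 between the spans of Rian and Mirg. They give 111 mature miRNAs with 102 seeds (bases 2 to 8, which pair with targets), and 9 seeds are shared by 2 or more of them. The sequences below show 1 miRNA from the Meg3 span, 3 from the stretch opposite Rtl1 (miR-433-3p inside 6430411K18Rik), and 3 pairs with 1 seed in common, with the seed in capitals. Their own levels were not measured, since the libraries hold long RNA bound to chromatin.

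mmu-miR-770-3p: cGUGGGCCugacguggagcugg
mmu-miR-433-3p: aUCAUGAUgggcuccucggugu
mmu-miR-127-3p: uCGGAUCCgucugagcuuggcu
mmu-miR-434-3p: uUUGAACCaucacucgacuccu
mmu-miR-370-5p: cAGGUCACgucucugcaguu
mmu-miR-1193-3p: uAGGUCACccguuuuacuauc
mmu-miR-494-5p: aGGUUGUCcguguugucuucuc
mmu-miR-410-5p: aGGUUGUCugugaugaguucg
mmu-miR-453: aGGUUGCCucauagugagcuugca
mmu-miR-496a-5p: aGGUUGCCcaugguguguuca

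The first 4 have seeds held by no other miRNA of the domain. In the shared pairs, miR-370-5p lies inside Rian and miR-1193-3p between Rian and Mirg, miR-494-5p lies between Rian and Mirg and miR-410-5p inside Mirg, and miR-453 and miR-496a-5p both lie inside Mirg.

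Promoters were read from RefSeq for 4 of the 5 members, as 250 bases before and 50 after the start. The promoters of Meg3 and Dlk1 are shown because these genes stood far apart in level. Searched on both strands, TATAAA (the TATA box) occurs in 13.6% of the 32851 promoters of the table, TGACGTCA (the cAMP response element) in 1.79% and TGCCGC (the core bound by ZFP57, a keeper of imprints) in 11.6%. Capitals mark the matches in the Meg3 promoter, chr12:109540746-109541045 on the plus strand, and the Dlk1 promoter, chr12:109452573-109452872 on the plus strand, holds none of the 3.

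Meg3 promoter: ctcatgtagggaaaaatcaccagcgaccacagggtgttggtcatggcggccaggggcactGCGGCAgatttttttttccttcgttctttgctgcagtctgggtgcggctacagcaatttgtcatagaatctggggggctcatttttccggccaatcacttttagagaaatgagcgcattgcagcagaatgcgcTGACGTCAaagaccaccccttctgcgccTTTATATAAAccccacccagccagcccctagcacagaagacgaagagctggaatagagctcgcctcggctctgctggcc
Dlk1 promoter: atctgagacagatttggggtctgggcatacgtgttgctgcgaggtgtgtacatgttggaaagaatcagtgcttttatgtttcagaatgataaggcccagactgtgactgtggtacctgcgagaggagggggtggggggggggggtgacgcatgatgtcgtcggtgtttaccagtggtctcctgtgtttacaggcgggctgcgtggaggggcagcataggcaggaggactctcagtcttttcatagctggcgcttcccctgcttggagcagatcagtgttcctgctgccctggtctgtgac

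In the Meg3 promoter, TATAAA starts at position -25 from the start site, and a match on the opposite strand at -29 overlaps it. TGACGTCA, which reads the same on both strands, starts at -57, and TGCCGC lies on the opposite strand at -190. The Meg3 window holds 13 CpG dinucleotides, the Dlk1 window 9, the Mirg window 10 and the Rian window 0, against a median of 7 over all promoters. RefSeq gives Meg3 a second promoter inside the gene, chr12:109545148-109545447, with 1 CpG and none of the 3 motifs. These matches are descriptions of letters and not measured binding sites.

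The noncoding RNAs of the cluster were among the most abundant chromatin-associated RNAs of these cells, and the coding genes were rare, with Rtl1 close to the detection limit. Rian ranked number 2 of all 22556 genes by RPM (counts scaled to the same library total), with a mean of 4098 RPM over the 12 libraries. Meg3 ranked number 80 with 944 RPM and Mirg number 215 with 604 RPM. Dlk1 had a mean of 1.24 RPM and Rtl1 of 0.494 RPM. Per kilobase of counted span, which allows genes to be compared, the means were 70.9 RPM per kb for Rian, 41.7 for Mirg, 30.7 for Meg3, 0.118 for Dlk1 and 0.0944 for Rtl1. By this measure Rian ranked number 35, Mirg number 89 and Meg3 number 127. The order Rian, Mirg, Meg3 by RPM per kb held in each of the 12 libraries, and the order of Dlk1 and Rtl1 did not. The 5 genes together held between 0.469 and 0.794% of all counts of a library.

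Meg3, the first noncoding gene of the strand, was measured without and with Dox at 881 and 774 RPM in WT. In the XistDelA clones the values without and with Dox were 675 and 698 RPM in C1, 518 and 671 RPM in 2C2, and 803 and 773 RPM in C11. In 11C, replicate 1 had 1646 and 1994 RPM and replicate 2 had 1031 and 858 RPM. Thus 11C was the highest line by its mean and 2C2 the lowest, and the 11C replicates stood well apart from each other. The XistDelA and 11C libraries did not overlap. Those of WT and 11C did, as WT without Dox (881 RPM) lay above 11C replicate 2 with Dox (858 RPM). By line, the means were 1382 RPM in 11C (SD 529.9, n = 4), 828 in WT (SD 75.9, n = 2), 788 in C11 (SD 21.1, n = 2), 686 in C1 (SD 16.2, n = 2) and 594 in 2C2 (SD 108, n = 2). An SD over 2 libraries here spans the no-Dox and Dox library of a line and is not a replicate spread, so the order of the lines is a description.

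Rian, the host of small nucleolar RNAs, was the most even of the 3. Its values without and with Dox were 3865 and 4025 RPM in WT, 4043 and 3526 RPM in C1, 3939 and 3522 RPM in 2C2, and 4151 and 4236 RPM in C11. In 11C it had 5097 and 4936 RPM in replicate 1 and 3942 and 3891 RPM in replicate 2. Only 11C replicate 1 lay above all other libraries, and replicate 2 lay inside their range. The highest library was 1.45-fold the lowest for Rian, 2.33-fold for Mirg and 3.85-fold for Meg3.

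Mirg, the miRNA host at the far end, was measured without and with Dox at 454 and 569.7 RPM in WT, 431 and 461 RPM in C1, 472 and 499 RPM in 2C2, and 561 and 642 RPM in C11. In 11C it had 885 and 1003 RPM in replicate 1 and 574 and 693 RPM in replicate 2. Within each Dox state both 11C libraries were above all XistDelA and WT libraries, and C11 was the highest of the other lines. By line, the means ran from 789 RPM in 11C (SD 192, n = 4) through 601 in C11 (SD 57.4, n = 2), 512 in WT (SD 81.9, n = 2) and 485 in 2C2 (SD 18.8, n = 2) to 446 in C1 (SD 21.7, n = 2). The libraries of 11C and C11, of C11 and WT, of WT and 2C2, and of WT and C1 overlapped, and as for Meg3 this order is a description.

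Dlk1, the coding gene at the near end, was measured without and with Dox at 1.37 and 1.30 RPM in WT, 1.79 and 1.53 RPM in C1, 1.18 and 1.43 RPM in 2C2, and 1.19 and 1.38 RPM in C11. In 11C it had 1.11 and 1.58 RPM in replicate 1 and 0.476 and 0.522 RPM in replicate 2. The libraries of 11C replicate 2 were the lowest, replicate 1 without Dox lay just under the other lines, and replicate 1 with Dox lay inside their range. Rtl1 was rarer still, with 23 and 34 counts in WT, 24 and 13 in C1, 10 and 17 in 2C2, and 15 and 12 in C11, each without and with Dox. In 11C, Rtl1 had 1 and 7 counts in replicate 1 and 0 and 3 in replicate 2, so that 2 of the 12 libraries, both 11C without Dox, held fewer than 3 counts. A count of 0 in 11C replicate 2 without Dox allows a level of up to 0.159 RPM (3 counts), and this limit and all intervals given here cover counting error only.

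**Figure D2:**
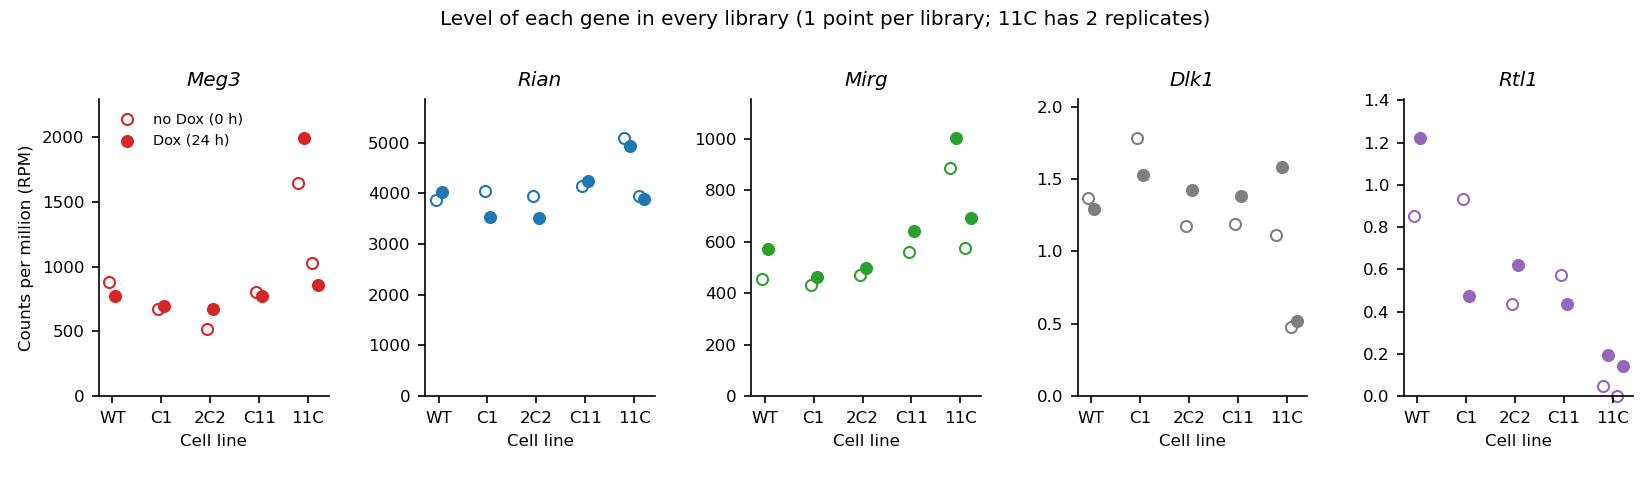
Level of each gene in RPM by cell line, with open points for no Dox and filled points for Dox, 1 point per library. Meg3 reaches 1994 RPM and Mirg 1003 RPM in 11C replicate 1, while Rtl1 is lowest in the 11C libraries.

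The RNA read on the plus strand across Rtl1 was also abundant. 6430411K18Rik, a noncoding gene of the plus strand whose span lies inside that of Rtl1 and holds the hairpin of miR-433, had a mean of 121 RPM, or 92.2 RPM per kb, which is higher per length than Rian. Its libraries ran from 85.0 to 153 RPM. Only 3 of its counts in all 12 libraries could be assigned to a parent, so its parental origin was not measurable. Rtl1, on the other strand, stood at 0.0944 RPM per kb over its own, longer span.

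The 3 noncoding RNAs came mostly from the Cast copy in every library. Over all 12 libraries, the Cast share of allelic counts was 86.1% for Meg3 (95% Wilson interval 85.9 to 86.3%, 100834 counts), 84.4% for Rian (84.4 to 84.5%, 666670 counts) and 86.3% for Mirg (86.1 to 86.5%, 121742 counts). Counts assigned to 129S were not absent, at 14007 for Meg3, 103697 for Rian and 16641 for Mirg. A share of feeder RNA in these counts was not tested. Whether these came from the same cells as the Cast counts cannot be read from bulk RNA, in which fewer cells of a type and less RNA per cell cannot be told apart.

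For Meg3, the Cast share without and with Dox was 85.7 and 86.3% in WT, 85.6 and 85.9% in C1, 85.7 and 87.1% in 2C2, and 85.8 and 86.1% in C11. It was 85.7% in both libraries of 11C replicate 1, and 87.7 and 87.4% in replicate 2. For Rian, the share was 84.7 and 84.4% in WT, 85.0 and 84.3% in C1, 85.1 and 84.9% in 2C2, 84.6 and 84.0% in C11, 83.5 and 83.1% in 11C replicate 1, and 85.8 and 85.7% in 11C replicate 2. The 11C replicates bracketed the other lines for Rian, and the replicate with the higher levels had the lower Cast share. For Mirg, the share was 86.1 and 86.4% in WT, 87.3 and 86.6% in C1, 87.5 and 87.4% in 2C2, 86.9 and 86.6% in C11, 85.6 and 84.8% in 11C replicate 1, and 87.4 and 86.6% in 11C replicate 2. All 36 of these values lay between 83.1 and 87.7%, a narrow band beside the spread of the levels, and the widest of their 95% Wilson intervals ran from 84.7 to 86.8% (Meg3, 2C2 without Dox).

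The coding genes gave few allelic counts. For Dlk1, 112 of 159 allelic counts were Cast, a share of 70.4% (95% Wilson interval 62.9 to 77.0%), and Cast counts exceeded 129S counts in 11 of 12 libraries. For Rtl1, 29 of 32 were Cast, a share of 90.6% (75.8 to 96.8%), and 3 libraries had no allelic count. In mouse tissues the coding genes are known to be transcribed from the parental copy opposite to that of the noncoding RNAs. Here neither showed an excess of 129S counts at this depth, and the interval of Dlk1 lay below the Meg3 value while that of Rtl1 included it.

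The share has to be read against the chromosome on which the cluster lies, since genes of distal chromosome 12 had a skewed share in every library. Between 110 and 40 Mb on the centromere side of Meg3, the median Cast share of other genes was 46.9 to 49.1% per interval. It was 60.8% between 40 and 30 Mb from Meg3, 70.8% between 30 and 20 Mb, and 70.7 to 75.4% in all intervals nearer to Meg3 or beyond it. Among the 243 other genes above 80 Mb that had 10 or more allelic counts per library on average, the median was 71.8%, with the middle 50% between 67.5 and 75.6%. In each library the median of these genes was 71.1 to 72.9%, while the median of genes on the other autosomes was 47.0 to 48.3%.

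The 3 noncoding RNAs stood above this raised background in all 12 libraries. Meg3 exceeded the library's median by 13.2 to 15.5 percentage points, Rian by 11.1 to 13.3 points and Mirg by 12.8 to 15.8 points. Ranked by Cast share among the 247 genes above 80 Mb, members included, Mirg was number 7, Meg3 number 8 and Rian number 10, and Dlk1 was number 150. Among the 84 genes that averaged 1000 or more allelic counts, Mirg, Meg3 and Rian were numbers 1, 2 and 3. Dlk1, at 70.4%, had the share of the region around it. No test was made of this ranking.

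**Figure D3:**
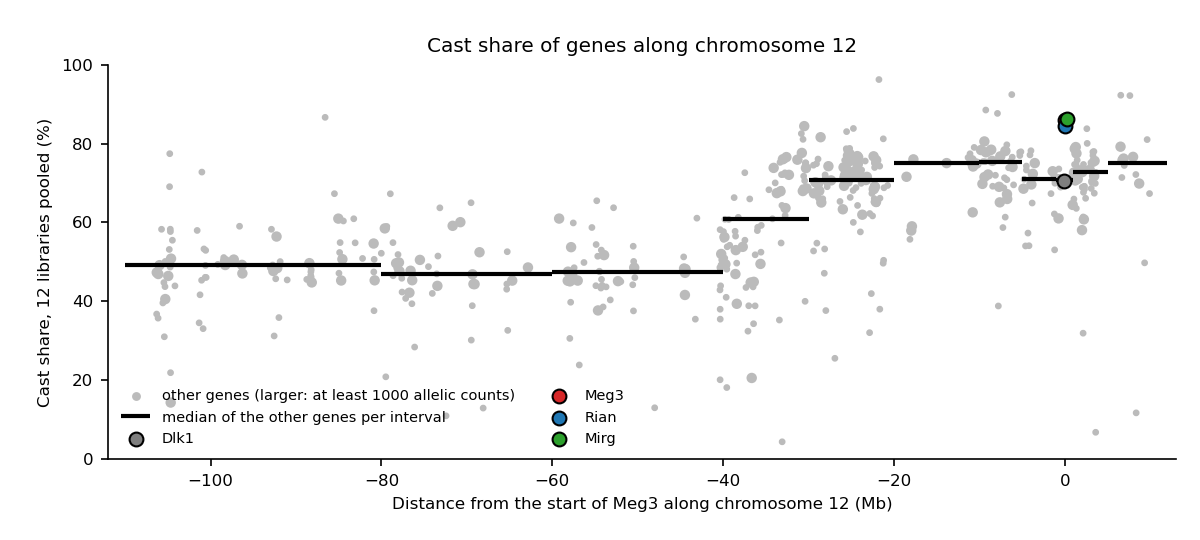
Cast share of each gene along chromosome 12, pooled over the 12 libraries, by distance in Mb from the start of Meg3, with black bars for the median of the other genes per interval. Meg3, Rian and Mirg lie at 84.4 to 86.3%, above the bars of 70.7 to 75.4% around them, and Dlk1 lies at 70.4%.

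**Figure D4:**
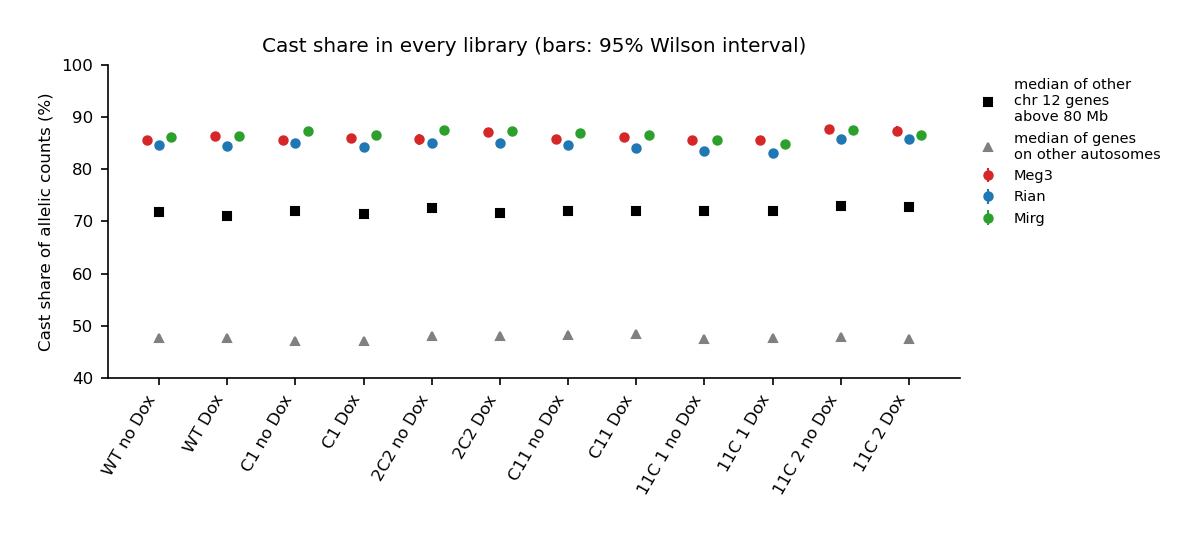
Cast share of Meg3, Rian and Mirg in each library with 95% Wilson intervals, beside the median of the other genes above 80 Mb of chromosome 12 (squares) and of genes on other autosomes (triangles). All values of the 3 genes lie at least 11.1 points above the squares of their library.

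The nearest genes lay within the region of raised share and varied around its median. Of 19 other genes that start within 1 Mb of the cluster, 13 averaged 10 or more allelic counts per library, and their Cast shares ran from 61.0 to 85.5% with a median of 71.0%. Begain, next to Dlk1 on the centromere side, had 69.0% on 667 counts, and Yy1, a transcription factor gene further out, had the lowest share of the 13, 61.0%. Of the genes under this depth, Slc25a47, a carrier gene near Yy1, had a share of 34.2% on 114 counts (95% Wilson interval 26.1 to 43.3%), on the other side of 50%. Hsp90aa1, a chaperone gene beyond the cluster, had 78.7%. At the far end of the imprinted domain, Dio3os had 85.5% on 165 counts (95% Wilson interval 79.3 to 90.0%) and Dio3, a thyroid hormone deiodinase gene also under this depth, had 92.7% on 41 counts (80.6 to 97.5%). Of the 13 other genes Dio3os had the highest share, above that of Rian and below those of Meg3 and Mirg, and its interval included all 3.

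Imprinted genes of other chromosomes did not share this pattern as a group. Of 27 looked for, all were in the files and 17 averaged 10 or more allelic counts per library. Of these 17, 12 had a Cast share between 40 and 60%, 0 were above 80% and 1 was under 20%. That gene was Snrpn, with 3.46%, followed by Plagl1 with 25.9% and Grb10 with 38.5%, and the highest was Peg3 with 61.7%. Their median was 47.5%, against 47.9% for all autosomal genes. The list was not split by the parental copy expected for each gene. Opposite skews cancel in a median, so no conclusion is drawn from it.

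With Dox in the XistDelA clones, no change was detected in any of the 5 genes. Mirg was higher with Dox in each of the 3 clones and Rian was lower with Dox in C1 and 2C2 and higher in C11. Without and with Dox, Meg3 averaged 665 and 714 RPM (SD 143 and 53.0, n = 3 each), Rian 4045 and 3761 RPM (SD 106 and 411), and Mirg 488 and 534 RPM (SD 66.4 and 95.3). Dlk1 averaged 1.38 and 1.45 RPM (SD 0.349 and 0.0739), and Rtl1 0.648 and 0.511 RPM (SD 0.256 and 0.0986).

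In the edgeR test, all 5 members were tested and 0 were called in XistDelA, against 0.0185% of the 16254 genes tested. Of the members, 0 had an unadjusted p under 0.05 and DESeq2 called 0. The fitted log2 changes were 0.07 (SE 0.25) for Meg3, -0.13 (SE 0.15) for Rian, 0.10 (SE 0.19) for Mirg, 0.03 (SE 0.37) for Dlk1 and -0.38 (SE 0.40) for Rtl1. Leaving out a clone turned some of these small values: Dlk1 was -0.05 without 2C2 and without C11, Meg3 was -0.02 without 2C2, and Rtl1 was 0.03 without C1. The 3 genes called, named after their values were seen, were Xist (log2 change 3.41), Rapgef4 (3.12) and Duox1 (3.37), and 955 genes had an unadjusted p under 0.05. Duox1, higher with Dox in every alternative (log2 change 3.29 to 3.50), was not called by edgeR without C1 (adjusted p 0.073), without 2C2 (0.337), without 11C replicate 1 (0.0548) or in a separate fit (0.0593), in a range over 10 alternatives, DESeq2 included, of 1.98e-15 to 0.337. Each clone gave a library in both states, and with the clone as a block 1759 genes were called in XistDelA (10.8%, 885 up and 874 down), again with 0 members (adjusted p 0.405 to 0.943 in edgeR, with Rian at -0.14 and lower in 2 of 3 clones at the low end).

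In 11C the picture with Dox was the same for the noncoding RNAs. Without and with Dox, Meg3 averaged 1339 and 1426 RPM (SD 435 and 803, n = 2 each), Rian 4519.5 and 4414 RPM (SD 816 and 739), and Mirg 729 and 848 RPM (SD 219.7 and 219). The differences between states were smaller than those between the replicates. The edgeR test called 0 members in 11C, against 0.0123% of genes, with 1 member (Rtl1) at an unadjusted p under 0.05 and 0 called by DESeq2. The fitted log2 changes were 0.07 (SE 0.30) for Meg3, -0.03 (SE 0.19) for Rian, 0.22 (SE 0.23) for Mirg and 0.41 (SE 0.49) for Dlk1. Rtl1, at 1 and 0 counts without Dox and 7 and 3 counts with Dox, gives no usable fold. The 2 genes called, named after their values were seen, were Xist (log2 change 5.42) and Rapgef4 (3.20), and 468 genes had an unadjusted p under 0.05. Without 11C replicate 1 or without 11C replicate 2, 1 gene was called. Rapgef4, higher with Dox in every alternative (log2 change 2.94 to 3.44), was then not called by edgeR (adjusted p 0.397 without replicate 1 and 0.124 without replicate 2), nor in a separate fit (0.0546), in a range over 10 alternatives, DESeq2 included, of 3.32e-30 to 0.397. Xist, at 4.89 to 5.81 over its 10 alternatives and higher with Dox in all, was not called in the separate edgeR fit (0.0546, range 3.09e-85 to 0.0546). Without 11C replicate 1, the log2 change of Meg3 was -0.19 and that of Rian 0.05. With replicate number as a block, edgeR called 539 of 16254 genes in 11C, again with 0 members. In that fit 2457 genes had an unadjusted p under 0.05, 2 members among them. These 2 members were Mirg (log2 change 0.24, SE 0.10, edgeR adjusted p 0.261, higher in both replicates) and Rtl1 (edgeR adjusted p 0.319).

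The difference between the Dox responses of 11C and XistDelA was also tested. edgeR called 0 of 16254 genes (0%), with 238 at an unadjusted p under 0.05 and 2 by DESeq2, and so 0 members, of which 1 (Rtl1) had an unadjusted p under 0.05 and 0 were called by DESeq2. Over all 6 pairs of libraries of a line or replicate, Mirg was higher with Dox in 6 of 6, by a log2 ratio of 0.08 to 0.33, and Meg3 was higher in 3 and lower in 3. Rian was lower with Dox in 4 of 6. The higher Mirg values did not pass the test in either group.

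The parental shares moved little with Dox. The Cast share of Rian was lower with Dox in 6 of 6 pairs, by 0.05 to 0.75 percentage points (changes of -0.75 to -0.05). That of Mirg was lower in 5 of 6, while that of Meg3 was higher in 5 of 6. The excess of Rian over the library's median of other genes above 80 Mb did not fall in all pairs. Without and with Dox it was 12.80 and 13.26 points in WT, and 12.55 and 13.34 in 2C2. In 11C replicate 2 it was 12.86 and 13.04. It fell in C1 (13.01 to 12.90), C11 (12.68 to 12.01) and 11C replicate 1 (11.61 to 11.14). A change in this excess was not tested. In edgeR tests of the allelic ratio, 4 members had enough allelic counts (Rtl1 did not). Of these 4, 0 were called in XistDelA, against 0.00738% of 13549 genes (1 gene, Xist, named after its value was seen), and 0 were called in 11C, against 0.657% (89 genes). In both tests 0 of the 4 had an unadjusted p under 0.05, and DESeq2 was not run on allelic ratios. These fits ignore the pairing of libraries by clone. With the clone as a block, an alternative added after seeing the data, edgeR called 100 genes in XistDelA (0.738%) and again 0 of the 4 members. At an unadjusted p under 0.05 were 1137 genes, 1 of the 4 members among them. That member was Rian, with a log2 change of the Cast to 129S ratio of -0.06 (SE 0.02, lower in 3 of 3 clones, adjusted p 0.286 in edgeR, range 0.286 to 1 over 7 alternatives). Xist itself, at a log2 change of -2.28, was not called by edgeR without 2C2 (adjusted p 0.484), without 11C replicate 1 (0.488) or without 11C replicate 2 (0.483), in a range of 3.3e-15 to 0.488 over 7 alternatives. The 89 genes of 11C became 5 without 11C replicate 1 and 49 without 11C replicate 2. The allelic change of Meg3 in 11C was -0.02 and became 0.00 without 11C replicate 2. With replicate number as a block, also added after seeing the data, edgeR called 220 genes in 11C and again 0 of the 4 members. In that fit 1149 genes had an unadjusted p under 0.05. Mirg was 1 of them, with a log2 change of -0.10 (SE 0.04, edgeR adjusted p 0.438). Its Cast share was lower with Dox in both replicates.

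The largest fitted allelic change with Dox among the members was that of Dlk1. Its Cast share without and with Dox was 81.0 and 66.7% in C1, 75.0 and 50.0% in 2C2, and 71.4 and 55.6% in C11, on 8 to 21 allelic counts per library. All 3 clones were lower with Dox. In WT the share was 69.2 and 70.0%, in 11C replicate 1 it was 80% and 71.4%, and in 11C replicate 2 it was 100% in both states on 6 and 4 counts. The log2 change of the Cast to 129S ratio in XistDelA was -1.24 (SE 0.64, lower in 3 of 3 clones) with an edgeR adjusted p of 1, and in 11C it was -1.05 (SE 1.14, lower in 1 of 2 replicates, adjusted p 1), so a change in the Dlk1 share was not detectable at this depth.

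Between lines without Dox, Meg3 was higher and Rtl1 lower in 11C than in the XistDelA clones, and Mirg, Rian and Dlk1 did not pass the test. Meg3 rose from a mean of 665 RPM in XistDelA (SD 143, n = 3) to 1339 RPM in 11C (SD 435, n = 2), with WT at 881 RPM. Rtl1 fell from 49 counts over the 3 XistDelA libraries to 1 count over the 11C libraries. Mirg averaged 488 RPM in XistDelA (SD 66.4, n = 3) and 729 in 11C (SD 219.7, n = 2). Dlk1 averaged 1.38 RPM in XistDelA (SD 0.349, n = 3) and 0.795 in 11C (SD 0.451, n = 2).

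Without Dox, edgeR called 2 of the 5 members, against 19.1% of 16254 genes (1532 up and 1566 down). Meg3 had a log2 difference of 0.88 (SE 0.27, adjusted p 0.0456 in edgeR) and was higher in both 11C libraries than in all 3 XistDelA libraries. This call was lost without C1 (0.122), 2C2 (0.216), C11 (0.0838) or 11C replicate 1 (0.0737), within a range of adjusted p over the 9 edgeR and DESeq2 alternatives of 0.00183 to 0.216, where the log2 difference was 0.58 to 1.14 (higher in both 11C libraries). For Rtl1 the summed counts give a level 26.5-fold higher in XistDelA than in 11C (95% exact counting interval 4.54 to 1068). The edgeR adjusted p for Rtl1 was 0.00403, with all 3 XistDelA libraries above both 11C libraries, and its fitted fold depends on the prior count. Mirg had 0.45 (SE 0.21, adjusted p 0.142 in edgeR, higher in both 11C libraries), Rian 0.04 (SE 0.17, 0.891, with the libraries overlapping) and Dlk1 -0.91 (SE 0.45, 0.177, lower in both 11C libraries). Without 11C replicate 2, Mirg was called at 0.69 (edgeR adjusted p 0.0452, range 0.00261 to 0.548 over 9 alternatives, with the remaining 11C library above all 3 clones), and without 11C replicate 1, Rian turned to -0.09. The 3098 genes called became 526 without 2C2 and 1311 without C11.

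With Dox, edgeR called none of the 5 differences, and DESeq2 called those of Meg3 and Mirg. Meg3 differed by as much as without Dox. The fitted differences of the coding genes were smaller, but edgeR called no change between the states in any member. The fitted value of Rtl1 without Dox depends on the prior count. edgeR called 0 of the 5 members, against 15.9% of genes (1220 up and 1364 down). At an unadjusted p under 0.05 in edgeR were 3 of the 5 members, against 5327 of 16254 genes. DESeq2 called 2 members (Meg3 and Mirg), and its number over all genes is not given here. The alternative of 5 lines plus Dox state takes each clone as its own line. The spread between clones is thus not part of its error. Of 9 alternatives, Meg3 was called in 4 (no filter, DESeq2, without 11C replicate 2, and 5 lines plus Dox state, which gives the same value for both states), Mirg in the last 3 of these and Rtl1 in the last alone. Meg3 averaged 714 RPM in XistDelA and 1426 in 11C, a log2 difference of 0.88 (SE 0.27, adjusted p 0.052 in edgeR, higher in both 11C libraries), with an adjusted p of 0.00183 to 0.294 over the 9 edgeR and DESeq2 alternatives. The Meg3 difference was 0.32 without 11C replicate 1, and without 11C replicate 2 it was 1.27 and was called (0.00481 in edgeR, with the remaining 11C library above all 3 clones). Mirg had 0.58 (SE 0.21, adjusted p 0.0799 in edgeR, higher in both 11C libraries) and Rtl1 -1.64 (SE 0.53, 0.0581, lower in both), with ranges over 9 alternatives of 0.00261 to 0.279 and 0.00264 to 0.195. Without 11C replicate 2, Mirg was called at 0.69 (0.0376 in edgeR, with the remaining 11C library above all 3 clones). Rian, at 0.15 (SE 0.17, adjusted p 0.575 in edgeR, above all 3 clones in 1 of 2 11C libraries), and Dlk1, at -0.53 (SE 0.42, 0.409, with the libraries overlapping), did not pass. The 2584 genes called became 520 without 2C2, 814 without C11, 3915 without 11C replicate 1 and 4444 without 11C replicate 2.

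Dlk1 depended on the replicate of 11C. Without 11C replicate 1, its log2 difference was -1.58 without Dox (edgeR adjusted p 0.0355, range 0.0355 to 0.398 over 9 alternatives) and -1.41 with Dox (0.043, range 0.043 to 0.862), in both cases lower in the remaining 11C library than in all 3 clones. Replicate 1 was thus the replicate with the higher Meg3, Rian and Mirg, and replicate 2 the one with the lower Dlk1, in both states.

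**Figure D5:**
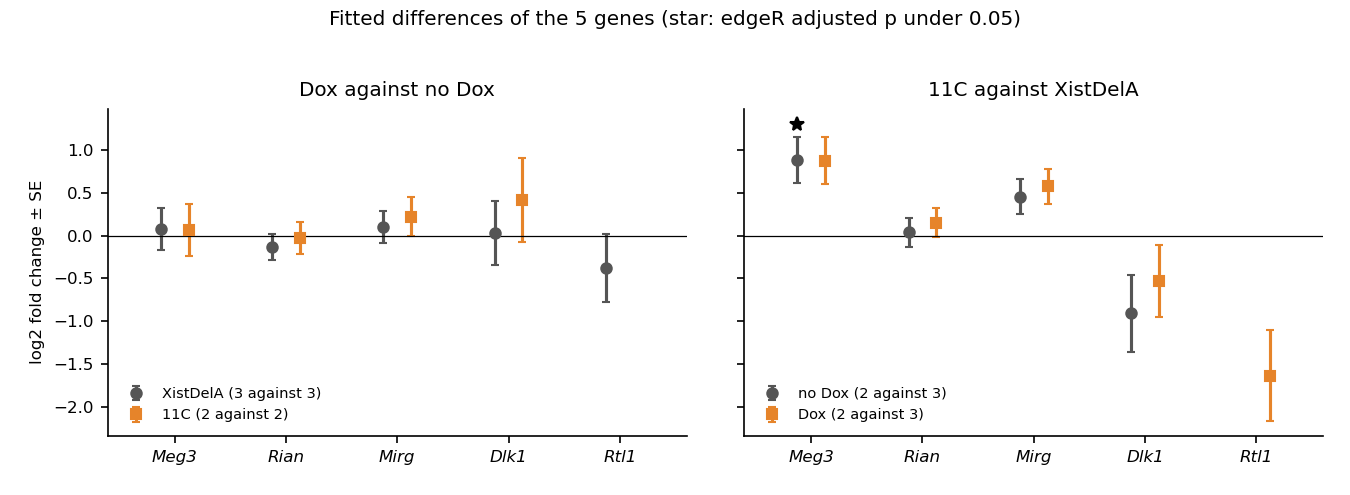
Fitted log2 fold changes with SE for Dox against no Dox and for 11C against XistDelA, by gene, with a star where the edgeR adjusted p was under 0.05. Differences with Dox lie within 0.22 of 0 for Meg3, Rian and Mirg, and Meg3 lies at 0.88 in both contrasts between lines; Rtl1 is left out where a group had 1 count or fewer per library.

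A test across all 5 lines, with Dox state as a term, asked whether any line differed. edgeR called 3 of the 5 members, against 34.3% of 16254 genes. They were Meg3 (adjusted p 0.0182 in edgeR, line means 594 to 1382 RPM, highest in 11C), Mirg (0.0121, line means 446 to 789 RPM, highest in 11C) and Rtl1 (0.00988, line means 0.0958 to 1.04 RPM, lowest in 4 of 4 11C libraries). Dlk1 (adjusted p 0.334 in edgeR, line means 0.924 to 1.66 RPM) and Rian (0.723, line means 3731 to 4467 RPM) did not pass, and in neither did the 4 11C libraries all lie on 1 side of the other lines. Without 11C, Rtl1 was not called (adjusted p 0.159 in edgeR, range 0.000143 to 0.159 over 10 alternatives, with WT highest in 2 of 2 libraries against C11 and 2C2), and without 2C2 Meg3 was not called (0.0525, range 6.25e-07 to 0.0525). Mirg was called under all 10 alternatives, with C11 the highest of the lines other than 11C. Dlk1 was called without 11C replicate 1 (edgeR adjusted p 0.00475, range 0.00475 to 0.516, with both 11C libraries lowest). The 5567 genes became 9884 without 11C replicate 1 and 10251 without 11C replicate 2.

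The parental share was not shown to differ between lines. In the edgeR test of the allelic ratio across lines, 0 of 4 members were called, against 14.1% of 13549 genes, and 0 of 4 had an unadjusted p under 0.05. The adjusted p in edgeR was 0.82 for Meg3 (line means 85.7 to 86.6% Cast), 0.93 for Rian (84.3 to 85.0%), 0.303 for Mirg (86.1 to 87.4%) and 0.664 for Dlk1, with Cast ahead of 129S in 12 of 12 libraries for the first 3. The excess of a share over the library's median of other genes above 80 Mb was not tested between lines. For Rian it was 12.86 and 13.04 points in 11C replicate 2, and 11.61 and 11.14 in replicate 1. The other 8 libraries had 12.01 to 13.34. For Meg3 it was 14.83 and 14.71 in replicate 2, inside the others' 13.21 to 15.53. For Mirg it was 13.71 and 12.83 in replicate 1, below the others' 14.27 to 15.80. The spread within a line at 1 Dox state comes from the 11C replicates alone, and leaving out 1 of them removes it. The calls of Rian, Meg3 and Mirg changed in such fits, and these calls are not read as differences of the members. The Cast share of Rian was 85.7 to 85.8% in 11C replicate 2 and 83.1 to 83.5% in replicate 1, each outside the range of the other 8 libraries. For Meg3, both libraries of replicate 2 lay above the other 8. For Mirg, both libraries of replicate 1 lay below the other 8.

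Regulators of imprints and of the domain were compared in the same contrasts. Of 16, all tested, 3 fell in 11C against XistDelA in both Dox states and 0 rose, a share near the 19.1 and 15.9% of all genes called without and with Dox. The 16 had a median log2 difference of -0.28 without Dox and -0.27 with Dox, against 0.04 over all genes in each state. The 3 that fell were Tet1, an enzyme that oxidises methylated cytosine, Trim28, the corepressor recruited by ZFP57, and Ctcf, an insulator protein. Tet1 averaged 1185 RPM in 11C (SD 67.7, n = 4) and 2472 in the other lines (SD 274, n = 8), and its log2 difference was -1.31 without Dox (edgeR adjusted p 0.00145) and -0.96 with Dox (0.0062), lower in 4 of 4 11C libraries. Trim28 averaged 229 and 384 RPM (log2 differences -0.88 and -0.74, edgeR adjusted p 0.00642 and 0.0148, lower in 4 of 4), and Ctcf 196 and 279.9 RPM (-0.60 and -0.57, 0.00892 and 0.0125, lower in 4 of 4). Without 2C2 the calls of Trim28 and Ctcf were lost in both states and that of Tet1 with Dox, and without C11 those of Ctcf in both states and of Trim28 with Dox (adjusted p over the edgeR and DESeq2 alternatives at most 0.102, lower in 11C in all). With Dox against no Dox, edgeR called 0 of the 16 in either group, with 0 at an unadjusted p under 0.05 and 0 by DESeq2. Zfp57, the zinc-finger protein that protects imprints, ranged from 160 to 359 RPM and was not called in these contrasts.

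Neighbours of the cluster included genes called in both directions. Of 17 tested, edgeR called 3 higher and 2 lower in 11C without Dox (19.1% of all genes were called), and 3 higher and 3 lower with Dox (15.9% of all genes), with median log2 differences of 0.11 and 0.04 against 0.04 over all genes in each state. Higher in both states were Wars, a tryptophan tRNA synthetase (0.43 and 0.45), Wdr25 (0.50 and 0.52) and Ppp2r5c, a phosphatase subunit (0.45 and 0.51). Lower in both were Dync1h1, the dynein heavy chain (-1.21 and -1.19), and Hsp90aa1 (-1.04 and -1.10), and lower with Dox was 1700001K19Rik (-1.62). The calls of Dync1h1 and Hsp90aa1 held under all 9 alternatives in each state, while those of Wars, Wdr25 and Ppp2r5c were each lost without C1, without 2C2 and without C11 in both states, and in some other alternatives. Of 9 alternatives without Dox, Wars lost its call in 5 (adjusted p in edgeR or DESeq2 0.00204 to 0.23, log2 difference 0.30 to 0.57), Wdr25 in 5 (0.00131 to 0.219, 0.40 to 0.63) and Ppp2r5c in 6 (0.000642 to 0.181, 0.33 to 0.57), with 11C higher in all. With Dox, Wars lost it in 5 (adjusted p in edgeR or DESeq2 0.00204 to 0.186, log2 difference 0.29 to 0.57), Wdr25 in 4 (0.00131 to 0.153, 0.35 to 0.66) and Ppp2r5c in 3 (0.000642 to 0.137, 0.42 to 0.57), again with 11C higher in all. That of 1700001K19Rik was lost without 2C2 (0.0599 in edgeR, log2 difference -1.73) and without C11 (0.0703, log2 difference -1.57), lower in 11C in both. Dio3, Dio3os, Begain and 6430411K18Rik were not called in these contrasts.

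Of the imprinted genes on other chromosomes, 24 were tested between 11C and XistDelA. Without Dox 6 were called, against 19.1% of all genes, of which Peg3 (0.73), Zim1 (0.82), Sgce (1.13) and Airn (0.98) were higher in 11C and Mest (-0.92) and Plagl1 (-0.69) were lower. With Dox 4 were called, against 15.9% of all genes, of which Zim1 (0.79) and Airn (1.00) were higher and Mest (-0.66) and Snrpn (-2.17) were lower. Airn, the antisense RNA of the Igf2r domain, was called under all 9 alternatives in each state, and each of the others lost its call without 2C2 in at least 1 state. The median log2 difference of the 24 was 0.04 without Dox and -0.07 with Dox, against 0.04 over all genes in each state.

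Markers of cell types differed in part between 11C and XistDelA, in contrasts in which 19.1% of all genes without Dox and 15.9% with Dox were called. Their part in the differences of the cluster was not tested. Of 10 stem cell markers, summed at 1658 to 2413 RPM and led by Zfp42, 9 were tested, and edgeR called 1 lower in 11C than in XistDelA without Dox and 2 lower with Dox. Sox2 had 0 counts in every library and Nanog 40.2 to 93.7 RPM. Pairs on 2 genes of a strand were left uncounted, so the 0 of Sox2 was not read as a level. Of 6 endoderm markers, 4 were tested and 3 were higher in 11C in both states, with sums of 50.0 to 57.2 RPM in 11C and 26.0 to 45.0 in the other lines. Dab2, the most abundant of the 6 at 30.3 RPM, was the tested marker that was not called. Its log2 difference was -0.04 without Dox (edgeR adjusted p 0.923) and 0.02 with Dox (0.958). Gata4 averaged 13.6 RPM in 11C and 4.52 in the other lines, Gata6 9.07 and 2.60, and Afp had a mean under 3 counts. Sox17, the third marker called, lost its call in 5 of 9 alternatives without Dox and in 7 of 9 with Dox, higher in 11C in all. Its edgeR adjusted p was up to 0.172 (log2 difference 1.38, without 2C2 with Dox). DESeq2 called 2 of the endoderm markers in each state. Of 4 mesoderm markers (sums 3.81 to 11.5 RPM, led by Eomes), 1 of 3 tested was higher in 11C without Dox, and with Dox edgeR called 0, with 0 at an unadjusted p under 0.05 and 0 by DESeq2. Of 5 neural markers (12.5 to 31.9 RPM, led by Nes), 2 of 4 tested were lower in 11C without Dox (Pax6 and Tubb3) and 2 with Dox (Pax6 and Nes), so Pax6 alone was called in both, while all 4 had lower fitted values in 11C in both states. Of 3 trophoblast markers (0.255 to 1.99 RPM, led by Elf5), 2 were tested and edgeR called 0 in either state, with 1 at an unadjusted p under 0.05 without Dox, 0 with Dox and 0 by DESeq2.

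Fibroblast markers were read because the cells had been cultured on feeders, although the methods describe the extracted cells as feeder free. Whether any feeder RNA contributed to the Meg3 values was not tested. The 12 markers summed to 70.3 to 91.3 RPM in 11C and 84.5 to 103 RPM in the other lines, led by Fbn1 at 39.5 RPM, with Lum at a mean under 3 counts. Of 10 tested, edgeR called 3 lower and 1 higher in 11C than in XistDelA without Dox, and 3 lower and 0 higher with Dox, against 19.1 and 15.9% of all genes. Col1a1, Col1a2 and Fbn1 were lower in both states and Pdgfrb was higher without Dox, so the markers did not move together. Their Cast shares ran from 6.90% (Postn, 29 allelic counts) to 47.6% (Thy1, 389 counts).

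The pattern across libraries was compared with that of other genes, as a description. Over the 12 libraries, the log2 levels of Meg3 and Mirg had a Pearson r of 0.872 (Spearman rho 0.657), Rian and Mirg 0.826 (rho 0.580) and Meg3 and Rian 0.808 (rho 0.490). Over the 8 libraries of WT and XistDelA alone, r was 0.336, 0.525 and 0.229 for the same pairs, so the high values rest on the 11C libraries. Among 12280 genes that averaged 50 or more counts, those most like Meg3 over 12 libraries were Wars (r 0.983), Tmem51 (0.979), Zfp219 (0.977), Nfasc (0.976) and Zfp532 (0.976). Those most like Mirg were Gstz1 (0.978), Ankrd9 (0.962), Lipe (0.960), Hebp1 (0.960) and Them7 (0.956), and those most like Rian were Serf2 (0.927), Accsl (0.910), Apobec3 (0.906), Zfp764 (0.902) and Tspyl4 (0.898). Wars, Gstz1 and Ankrd9 lie on chromosome 12, and Wars is 1 of the neighbours of the cluster. Without 11C, 0 of the 5 genes most like each RNA remained. Dlk1 and Rtl1 were below 50 counts and were not compared.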

How the data were processed

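Chromatin-associated RNA was measured in 12 libraries. The authors deposited raw counts of read pairs per gene span, introns included, made with featureCounts 1.5.2 on mm10, in total and for each parental genome, and pairs on 2 genes of a strand were left uncounted. Genome 1 was taken as Cast and genome 2 as 129S because induced Xist fell to genome 2. The members and gene lists were chosen with earlier results of these data known. RPM used the total counts on genes. Tests used edgeR 4.0.16 (quasi-likelihood, TMM, minimum count 10, Benjamini-Hochberg over all genes, threshold 0.05) in R 4.3.3 on 6 groups, or on 5 lines plus Dox state. Allelic ratios were fitted with library terms where a gene averaged 10 or more allelic counts per library. Alternatives were other size factors, no filter, DESeq2 1.42.0, a clone block, separate fits and leaving out replicates. XistDelA libraries of 1 clone were checked to deviate together (r 0.595, 0.368 and 0.537), so the block is reported. Intervals are 95% Wilson, except the exact counting interval of the Rtl1 ratio. Levels between libraries were related as log2(RPM + 0.5). Genes were named by membership, by nearness within 1 Mb, by list or as the 5 most alike. Sequences came from RefSeq (GRCm38.p6), and proteins were not available. The fits were also run on simulated data, of which no result is given here.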

Additional observations from a re-analysis of the deposited data

How the results depend on the processing

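Of the values of the members under the alternatives, 325 kept direction and side of the threshold, 17 newly passed it, 6 no longer did and 11 turned direction. The latter, none called, are log2 values. Without 2C2: Dlk1 -0.0452 and Meg3 -0.0214 with Dox in XistDelA, and Meg3 0.0887 in the difference of responses. Without C11: Dlk1 -0.0464 with Dox. Without C1: Rtl1 0.0273 with Dox. Without 11C replicate 1: Meg3 -0.1925 and Rian 0.0529 with Dox in 11C, and Rian -0.0860 for 11C against XistDelA without Dox. Without 11C replicate 2: Meg3 0.1276 in the difference of responses and an allelic change of 0.0021 with Dox in 11C. With no filter: Meg3 0.0172 in the difference of responses. Leaving out replicates, these results ran from -0.0464 to 0.2133 (Dlk1), -0.0214 to 0.1583 (Meg3) and -0.7360 to 0.0273 (Rtl1) with Dox in XistDelA, from -0.1925 to 0.1984 (Meg3) and -0.1245 to 0.0529 (Rian) with Dox in 11C, from -0.2695 to 0.1276 (Meg3) in the difference of responses, from -0.0860 to 0.1625 (Rian) between lines without Dox, and from -0.0451 to 0.0021 (Meg3) for the allelic ratio in 11C. The causes were not tested.

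Numbers of genes called moved as follows. With Dox in XistDelA, DESeq2 gave 39 and the clone block 1759. With Dox in 11C, DESeq2 gave 32, a block on replicate number 539, a separate fit 0, and leaving out replicates 1 to 2. DESeq2 gave 2 for the difference of responses. For 11C against XistDelA, leaving out replicates gave 526 to 3817 without Dox and 520 to 4444 with Dox, and 5 lines plus Dox state, an alternative added after seeing the data, gave 7780 in both. Across lines, leaving out replicates gave 4389 to 10251. For allelic ratios, leaving out replicates gave 0 to 1 in XistDelA and 5 to 90 in 11C, and a block on clone or replicate number, added after seeing the data, gave 100 and 220. Where 1 library remains in a group, it is assumed to vary like the others. The alternatives without 11C and with at least 1000 allelic counts were also added after seeing the data. Depth limits Dlk1 and Rtl1: 159 and 32 allelic counts in all libraries cannot place their parental origin closely, and Rtl1 was at or near 0 counts in 11C.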
